A study of Drosophila melanogaster with 64 samples.

Results

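The fat body that surrounds the spermathecae and parovaria of unmated Drosophila melanogaster females was set against the 5 tissues of the unmated lower female reproductive tract (FRT), by RNA sequencing. The comparison took the unmated libraries of these 6 tissues, 22 of the 64 libraries in the series, and used no expression value to choose them. It held 4 libraries of the fat body, 4 each of the bursa, spermathecae and parovaria, and 3 each of the oviduct and seminal receptacle, 18 tract libraries in all. Each tract tissue had equal weight, so that the fat body was compared with the mean of 5 tissues and not of 18 libraries. All flies were unmated females of the wild-type LHM strain and were 3 to 8 days old. A library was made from RNA of the dissected tissue of about 300 females, so replicates are pools, and p-values measure the spread between these pools, which may in part be technical. Each library held 23608897 to 26460984 counts. The labels give 2 sequencing runs, and fat body replicates 1 and 2 were in run 1 and replicates 3 and 4 in run 2.

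The insect fat body does the work that liver and adipose tissue share in mammals. It stores triglyceride in lipid droplets and sugar as glycogen, releases trehalose and lipoprotein-bound lipid into the haemolymph, and is the main source of haemolymph proteins, including yolk proteins in females and antimicrobial peptides after infection. The tract tissues are of 2 kinds. The bursa, oviduct and seminal receptacle are muscle-coated epithelial tubes and sacs, and the spermathecae and parovaria are secretory glands.

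The fat body differed from the tract at a large share of genes. Of 8545 genes tested, 1154 (13.5%) were higher in the fat body and 1399 (16.4%) were lower, where a gene was called at a Bonferroni-adjusted p of at most 0.001 in edgeR's quasi-likelihood test together with a log2 fold change whose size was 2 or more. Levels are CPM, read counts scaled to the library, after trimmed mean of M-values (TMM) scaling. A log2 fold change is the fat body minus the mean of the 5 tissue coefficients, which is a mean on the log scale, and its standard error (SE) follows a ± sign. For 1936 genes (22.7%) all 4 fat body libraries lay above all 18 tract libraries, and for 2255 genes (26.4%) they lay below. By CPM on library totals, without TMM scaling, the fat body expressed 5506 genes above 2 CPM in at least 2 libraries. The tract tissues expressed between 7060 (parovaria) and 7861 (seminal receptacle). The TMM factors of the fat body were lower (given below), so on the TMM scale this cut was stricter there than in the tract. In bulk tissue, fewer cells of a type and less RNA per cell cannot be told apart.

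**Figure D1:**
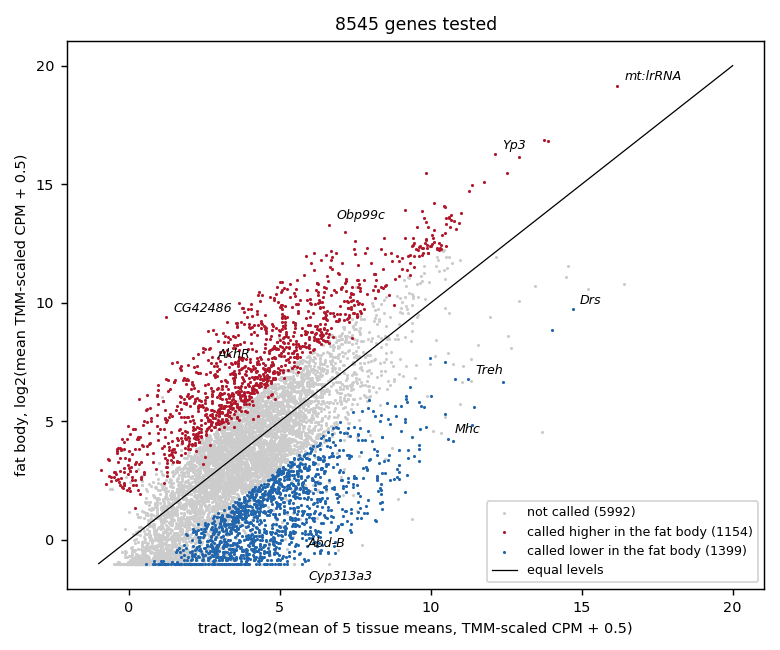
Mean level of each gene tested, with the tract on the horizontal axis and the fat body on the vertical axis, both as log2(TMM-scaled CPM + 0.5). Each point is a gene, the 1154 genes called higher in the fat body are red, the 1399 called lower are blue, and Yp3 and Obp99c lie above the line of equal levels while Mhc and Abd-B lie below it.

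The balance between the directions depended on the scaling and on the test. The 10 most abundant genes of each library took 42.2% to 53.9% of the counts in the fat body. Such shares were not particular to it, at 33.1% to 65.2% in the tract, with the parovaria highest (53.3% to 65.2%). TMM factors were 0.319 to 0.509 in the fat body, against 0.687 to 1.79 in the tract and 0.687 to 1.003 in the parovaria. Of the genes called, 45.2% were higher in the fat body with TMM, 44.2% with DESeq2's size factors and 38.1% with upper-quartile factors, but only 11.9% (417 higher and 3093 lower) with library totals alone. It turned with limma-voom, where 59.4% of calls were higher (1128 against 770), with no fold threshold (53.7%), and within run 1 alone (75.1%) or run 2 alone (74.0%). The median log2 fold change of all genes was -0.43 with TMM and -1.93 with library totals, so the median of each gene list below is given after subtracting the median of all genes. List counts cover members that passed the filter on low counts, 439 of 519 matched members over 29 lists. A gene that passed only through the tissue where it is high is bound to differ. Each list count is to be read beside the shares of all genes tested, 13.5% higher and 16.4% lower. All 417 genes called higher with library totals were also called higher with TMM, and all 1399 called lower with TMM were also called lower with library totals.

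The label was checked against markers. Of 8 fat body markers, 7 were higher in the fat body and 1, srp, was not. The summed level of the 5 muscle markers was 262, 207, 202 and 174 CPM in the fat body, below every tract library (591 to 23152 CPM), and the 4 epithelial markers summed to 6.66, 7.01, 3.56 and 3.85 CPM in the fat body, against 56.1 to 215 CPM in the tract. Transcripts of the 5 spermathecal secreted proteases summed to 2879, 1372, 3824 and 2275 CPM in the fat body. Their mean was 3.04% of the 85059 CPM in the spermathecae that this tissue surrounds. The level was not particular to the fat body, as the parovaria (mean 2424 CPM) and seminal receptacle (2255 CPM) were similar.

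Yolk protein genes were among the 10 genes with the most counts in the fat body. The 3 yolk protein genes lie on the X chromosome of the Release 6 genome, Yp1 at chrX:10053811-10055498, Yp2 at chrX:10050951-10052636 and Yp3 at chrX:13759546-13761547. Ovarian follicle cells also make these proteins, but the ovary is not part of these tissues. Yp3 had 61843, 86035, 76658 and 90242 CPM in the fat body, against 1254 to 9149.5, median 3813 CPM in the tract. The lowest fat body library was above the highest tract library by a wide margin, and the fold change was 4.29 ± 0.16 (edgeR, adjusted p = 4.73e-13). Yp1 had 44836, 54283, 38451 and 44233 CPM in the fat body and 1698 to 12938, median 4958 CPM in the tract (3.15 ± 0.15). Yp2 had 33804, 45886, 24218 and 37923 CPM in the fat body and 922 to 8036, median 2927 CPM in the tract (3.56 ± 0.16). Per kilobase of exon the fat body means were 42127 CPM for Yp3, 28213 CPM for Yp1 and 21915 CPM for Yp2. Together the 3 genes took 4.45% to 9.48% of fat body counts, against 0.55% to 3.02% of tract counts. With library totals alone Yp1 was no longer called, and Yp2 and Yp3 were.

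The other most abundant transcripts of the fat body were of different kinds. By share of counts the 10 leading genes were mt:lrRNA, mt:CoI, mt:CoIII, Yp3, mt:Cyt-b, Yp1, FBgn0040813, Yp2, mt:CoII and RpL41. Those with the prefix mt are the large ribosomal RNA and respiratory chain subunits encoded by the mitochondrial genome, and RpL41 is a protein of the large ribosomal subunit. The mitochondrial genome gave 33.9% and 35.0% of counts in fat body replicates 1 and 2 (run 1) and 48.0% and 40.1% in replicates 3 and 4 (run 2). Its share was 32.3% to 38.4% in the bursa, 18.3% to 21.0% in the oviduct and 4.51% to 12.3% in the other 3 tissues, so the bursa libraries overlapped the fat body in this share. The gene with identifier FBgn0040813, which the annotation used here does not name, had 39420, 33555, 64098 and 42516 CPM in the fat body and 246 to 2392, median 831 CPM in the tract (5.75 ± 0.21). All 10 genes were called higher with TMM, while mt:lrRNA, mt:CoI, mt:CoIII, mt:Cyt-b and RpL41 joined Yp1 in losing the call with library totals.

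Carriers of lipid in the haemolymph were higher in the fat body. Of 7 lipid transport genes, 4 rose and 1 fell, against 13.5% and 16.4% of all genes tested, with a median 2.90 above that of all genes. Apolipophorin, from apolpp, is the protein of the main haemolymph lipoprotein. It had 1213, 1366, 1673 and 981 CPM in the fat body, against 47.0 to 451, median 119.6 CPM in the tract (3.32 ± 0.14), and its highest tract values were in the parovaria (mean 385 CPM). Apoltp, the lipid transfer particle that loads this lipoprotein, was at 108 to 139 CPM in the fat body and 4.26 to 88.1 CPM in the tract (2.89 ± 0.12). LpR2, a lipoprotein receptor, also rose (2.48 ± 0.18). NLaz, a secreted lipocalin, went the other way, with 17.0, 12.2, 22.2 and 21.6 CPM in the fat body, against 24.1 to 919, median 131 CPM in the tract (-2.63 ± 0.21). The bursa (mean 179.9 CPM) and the parovaria (778 CPM) held most of it. With library totals none of the 4 risen genes of this list was called.

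Genes of fatty acid and triglyceride synthesis were higher as well. Of 17 tested, 10 rose and 0 fell, with a median 2.97 above that of all genes. Desat1, the desaturase that introduces the double bond into stored fatty acids, had 13070, 16273, 8499 and 10889 CPM in the fat body, against 408 to 1551, median 836 CPM in the tract (3.88 ± 0.13; edgeR, adjusted p = 6.16e-14). The fat body libraries were all above the tract, and those of run 1 were above those of run 2. AcCoAS, which makes acetyl-CoA from acetate, was at 2842 to 3274 CPM in the fat body and 88.1 to 298 CPM in the tract (4.09 ± 0.10). The malic enzyme gene Men, a source of NADPH for synthesis, rose by a similar amount (3.52 ± 0.12), as did mdy, the acyltransferase that forms triglyceride (4.31 ± 0.09). The fatty acid synthases differed in level, FASN1 at 969 to 2546 CPM and FASN2 at 41.4 to 70.1 CPM in the fat body. FASN1 rose by 2.55 ± 0.15 and its libraries overlapped (tract 101 to 1008 CPM), whereas FASN2 rose by 4.56 ± 0.18 without overlap (tract 0.793 to 5.404 CPM). ACC, the carboxylase that commits acetyl-CoA to fatty acid synthesis, had 941, 1074, 401 and 646 CPM in the fat body, against 78.2 to 364, median 158 CPM in the tract (2.23 ± 0.16). Without fat body replicate 2 its log2 fold change was 1.97, under the threshold.

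Storage and release of fat had the highest median of the lipid lists. Of 8 lipid droplet and lipolysis genes, 5 rose and 0 fell (median 3.99 above all genes). AkhR encodes the receptor for adipokinetic hormone, the insect counterpart of glucagon. It had 179, 206, 143 and 168 CPM in the fat body, against 1.17 to 13.3, median 5.88 CPM in the tract (5.13 ± 0.17; edgeR, adjusted p = 3.16e-14). Lsd-1, the perilipin on the droplet surface through which this hormone acts, had 1261, 1319.7, 758 and 1041 CPM in the fat body, against 13.5 to 96.5, median 49.9 CPM in the tract (4.61 ± 0.18). No tract library came near the fat body for either gene. The other perilipin, Lsd-2, was 91.8 to 311 CPM in the fat body and 34.5 to 209.7 CPM in the tract (0.87 ± 0.18). The triglyceride lipase gene bmm was 31.0 to 70.2 CPM in the fat body and 14.9 to 41.6 CPM in the tract (0.87 ± 0.17). Neither was called, the groups overlapped for both genes, and both signs turned with library totals. Hsl, the hormone-sensitive lipase, had 9.09, 9.92, 4.95 and 8.11 CPM in the fat body, against 17.9 to 40.3, median 32.5 CPM in the tract. Its log2 fold change of -1.97 ± 0.16 missed the threshold by little, and it passed when fat body replicate 1, 2 or 4, oviduct replicate 1 or the second seminal receptacle library was left out (-2.001 to -2.139).

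Nearly all genes of fatty acid oxidation were higher. Of 13 tested, 12 rose and 0 fell (median 3.85 above all genes). The gene yip2, for the thiolase that ends each round of the mitochondrial cycle, had 1026, 1063, 1153 and 1154 CPM in the fat body, against 59.4 to 111, median 76.1 CPM in the tract (3.80 ± 0.09). Its fat body libraries differed from each other by little. The mitochondrial carnitine carrier colt was 584 to 982 CPM in the fat body and 32.6 to 69.4 CPM in the tract (4.003 ± 0.12). The exception was whd, the carnitine palmitoyltransferase of the outer membrane, at 124 to 329 CPM in the fat body and 39.7 to 143 CPM in the tract (1.93 ± 0.13), which reached 2.06 and the call without fat body replicate 3.

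**Figure D2:**
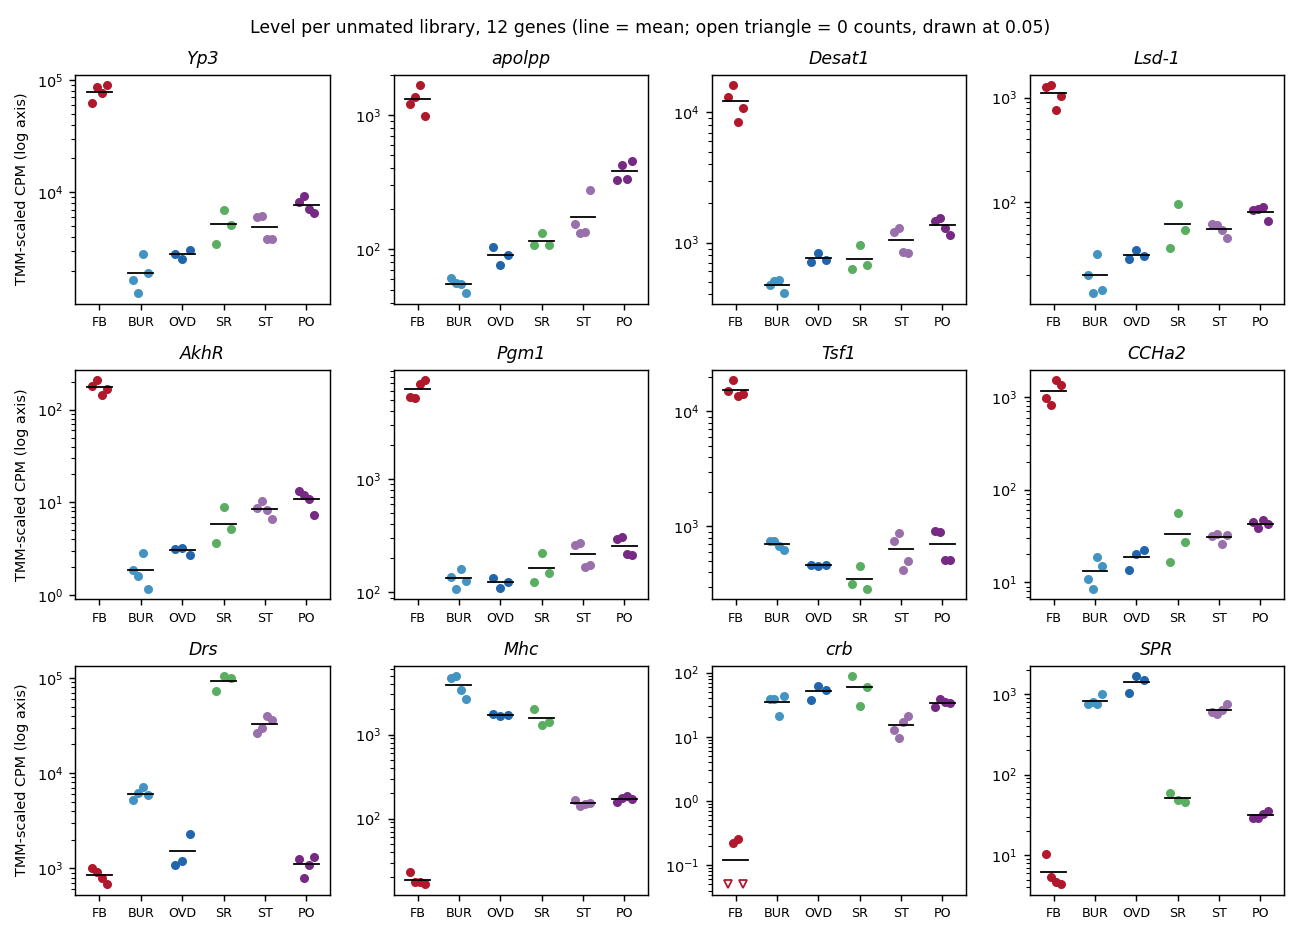
Level of 12 genes in each unmated library, as TMM-scaled CPM on log axes, with the fat body (FB) leftmost and then BUR (bursa), OVD (oviduct), SR (seminal receptacle), ST (spermathecae) and PO (parovaria). Points are libraries, short lines are means and open triangles are libraries with 0 counts. The fat body libraries lie above all tract libraries for Yp3, apolpp, Desat1, Lsd-1, AkhR, Pgm1, Tsf1 and CCHa2, and below them for Mhc, crb and SPR, whereas Drs overlaps the parovaria.

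Genes of sugar storage and release were mostly higher. Of 17 genes of glycogen, trehalose and glucose metabolism, 14 rose and 1 fell (median 4.14 above all genes). Pgm1, the phosphoglucomutase between glycogen and hexose phosphate, had 5298, 5182, 6830.2 and 7383 CPM in the fat body, against 108 to 306, median 164 CPM in the tract (5.16 ± 0.14; edgeR, adjusted p = 9.46e-16). Tps1 makes trehalose, the main sugar of the haemolymph, and had 6666, 7584, 5892 and 6877 CPM in the fat body, against 100.4 to 746, median 303 CPM in the tract (4.47 ± 0.16). Both groups were far apart for these genes. Hex-C, the hexokinase typical of the fat body, was 866 to 1004 CPM in the fat body and 11.2 to 69.0 CPM in the tract (4.92 ± 0.16), and fbp, the fructose-bisphosphatase of gluconeogenesis, was 1284 to 1619.7 CPM in the fat body and 33.6 to 125 CPM in the tract (4.49 ± 0.12). Treh, the enzyme that splits trehalose, was the member that fell. It had 129, 144, 64.5 and 97.9 CPM in the fat body, against 234 to 9469, median 901 CPM in the tract (-3.45 ± 0.23; edgeR, adjusted p = 1.97e-08). The oviduct held 8048 CPM and the bursa 2313 CPM, while the spermathecae held 285 CPM, and against the glandular tissues alone Treh was not called.

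Enzymes of amino acid breakdown were often higher, with a few exceptions. Of 17 tested, 9 rose and 2 fell (52.9% and 11.8%, against 13.5% and 16.4% of all genes tested). The share that fell was below that of all genes, and the list median was 2.50 above all genes. Sardh, which demethylates sarcosine, was 122 to 139.6 CPM in the fat body and 1.06 to 11.4 CPM in the tract (5.21 ± 0.15). Gnmt, which makes sarcosine and uses up S-adenosylmethionine, had 72.9, 42.6, 233 and 193 CPM in the fat body, against 0.542 to 12.5, median 3.84 CPM in the tract (5.15 ± 0.40), with the run 2 libraries above those of run 1. The tryptophan oxygenase gene v rose by 4.79 ± 0.14, the phenylalanine hydroxylase gene Hn by 3.37 ± 0.16 and Oat, the ornithine aminotransferase, by 4.09 ± 0.13. Both enzymes of proline breakdown fell. Proline dehydrogenase, from slgA, had 1.51, 0.373, 0.762 and 0.507 CPM in the fat body, against 24.9 to 144, median 41.0 CPM in the tract (-6.07 ± 0.28). P5CDh1, which acts on the product of slgA, had 4.24, 2.68, 1.52 and 1.62 CPM in the fat body, against 59.4 to 260.0, median 102 CPM in the tract (-5.399 ± 0.25). Neither gene overlapped between the groups, and Oat, whose product enters the same pathway, was higher in the fat body.

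Other haemolymph proteins were mostly higher too. Of 11 tested, 8 rose and 0 fell (median 4.22 above all genes). Transferrin, from Tsf1, carries iron in the haemolymph and had 15046, 18597, 13616 and 14172 CPM in the fat body, against 287 to 912, median 511 CPM in the tract (4.80 ± 0.15). Lsp2, a storage hexamerin, was 1252 to 2398 CPM in the fat body and 16.7 to 147 CPM in the tract (4.77 ± 0.16). The clotting protein gene fon was 1120.1 to 1397 CPM in the fat body and 11.7 to 94.3 CPM in the tract (5.02 ± 0.16). Fit, a secreted peptide of the female fat body, had 699.8, 586, 1085 and 1049 CPM in the fat body, against 4.15 to 34.7, median 13.5 CPM in the tract (5.95 ± 0.22). For these 4 genes no tract library reached the lowest fat body library. Fer1HCH, a ferritin subunit, rose by less (2.87 ± 0.15). Regucalcin is a case where the mean over the tract hides a tissue. It was 1248 to 1331 CPM in the fat body, against 83.3 to 1908, median 135 CPM in the tract (2.58 ± 0.13), and the seminal receptacle (mean 1367 CPM) was as high as the fat body.

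Immune effectors had the highest median of the 28 lists with a member tested. Of 22 antimicrobial and bomanin peptide genes, 17 rose and 1 fell (median 5.31 above all genes). Bomanins are short secreted peptides of the Toll response, and BomBc2 had 3766, 3028, 6009 and 4575 CPM in the fat body, against 23.5 to 159.7, median 63.6 CPM in the tract (6.06 ± 0.20). BomS1 (5.50 ± 0.17), BomS2 (5.75 ± 0.21) and BomBc3 (5.53 ± 0.16) rose by similar amounts, and BaraA1, a Toll-regulated precursor of several peptides, by 4.96 ± 0.12. Among targets of the Imd pathway, DptB had 2485, 1694, 1819.6 and 1441 CPM in the fat body, against 10.7 to 86.1, median 33.2 CPM in the tract (5.97 ± 0.24). The related DptA was 1291 to 1826 CPM in the fat body and 14.2 to 64.0 CPM in the tract (5.64 ± 0.19). The attacin gene AttC was 1879 to 2147 CPM in the fat body and 16.5 to 98.2 CPM in the tract (5.60 ± 0.17). None of these genes overlapped between the groups. Metchnikowin, from Mtk, varied more among the fat body libraries, at 1974, 1138, 1029 and 751 CPM, against 7.34 to 69.3, median 19.8 CPM in the tract (5.76 ± 0.37). AttA and AttB (4.95 ± 0.22 and 4.81 ± 0.20) and CecA1 and CecA2 (4.12 ± 0.19 and 4.33 ± 0.23) are near-identical pairs, among which reads of 50 bases may be split in ways the sources used here do not describe.

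Drosomycin was the peptide that fell. Drs had 1018, 921, 796 and 679 CPM in the fat body, against 796 to 104690, median 5989 CPM in the tract (-3.21 ± 0.22; edgeR, adjusted p = 5.25e-08). Its means were 91963 CPM in the seminal receptacle, 33028 CPM in the spermathecae and 6077 CPM in the bursa. The fat body overlapped 1 tract library, parovaria replicate 2 at 796 CPM, and the parovaria had a mean of 1109 CPM. Because of this 1 gene the summed level of the whole list was 23638, 19497, 26137 and 22520 CPM in the fat body but averaged 92954 CPM in the seminal receptacle, although 17 members were higher in the fat body. Within run 1 or run 2 alone Drs was not called.

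**Figure D3:**
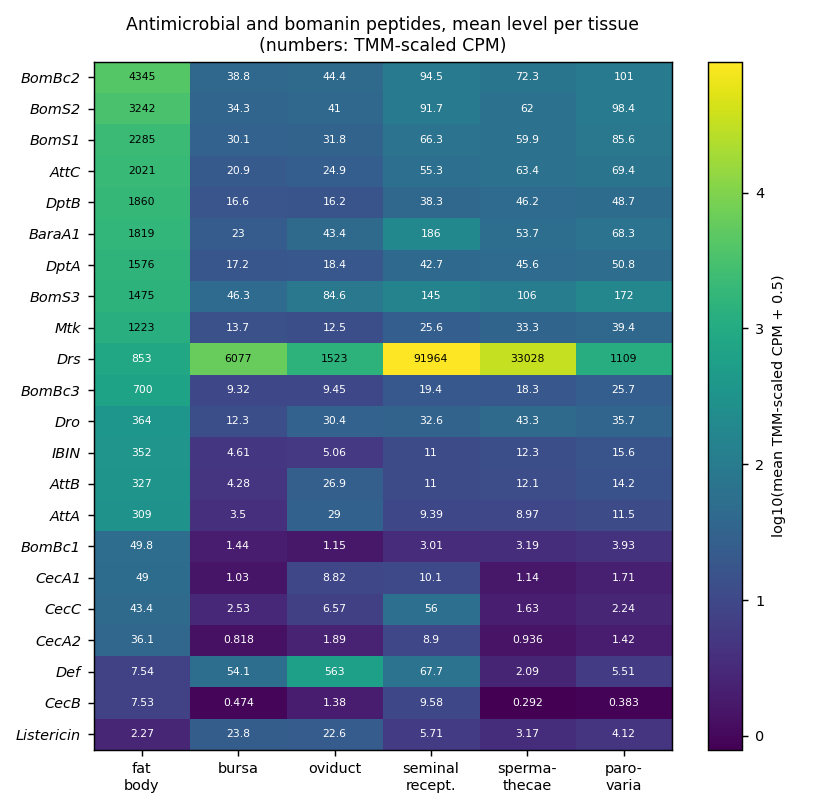
Mean TMM-scaled CPM of the 22 antimicrobial and bomanin peptide genes tested, with the fat body as the leftmost column and genes ordered by their fat body level. Colour is log10(mean + 0.5), the numbers are the means, and Drs is brightest in the seminal receptacle and spermathecae while most other rows are brightest in the fat body.

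Another list held 19 tested genes for microbe recognition, thioester proteins and the proteolytic cascade to Toll, of which 9 rose and 2 fell. These were 47.4% and 10.5%, against 13.5% and 16.4% of all genes tested, and the list median was 2.24 above all genes. PGRP-SD, a secreted peptidoglycan recognition protein, had 249.8, 197, 277 and 252 CPM in the fat body, against 3.27 to 17.7, median 6.83 CPM in the tract (5.07 ± 0.19). PGRP-SA, the recognition protein upstream of Toll, was 110.1 to 153 CPM in the fat body and 3.36 to 13.2 CPM in the tract (4.26 ± 0.12). The protease gene psh, which senses microbial proteases, was 129.7 to 144 CPM in the fat body and 2.85 to 29.5 CPM in the tract (4.03 ± 0.11). The genes that fell were the thioester proteins Tep3 (-5.68 ± 0.33) and Tep4 (-3.03 ± 0.17). Tep4 had 55.2, 67.9, 50.4 and 52.9 CPM in the fat body, against 207 to 1712, median 358 CPM in the tract, with the oviduct highest (mean 1416 CPM).

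Hormones that the fat body sends to other organs rose in part. Of 8 signal genes, 4 rose and 1 fell (50% and 12.5%, against 13.5% and 16.4% of all genes tested), with a median 2.19 above all genes. CCHa2, a nutrient-dependent peptide that acts on insulin-producing cells, had 975.2, 813, 1505 and 1359 CPM in the fat body, against 8.51 to 55.8, median 26.5 CPM in the tract (5.51 ± 0.20; edgeR, adjusted p = 2.32e-13). Gbp2, a growth-blocking peptide, was 2088 to 2427 CPM in the fat body and 20.1 to 311 CPM in the tract (5.21 ± 0.15). Gbp1 rose by less (2.45 ± 0.19) and reached 110.2 CPM in the parovaria, within the range of the fat body (88.9 to 176 CPM). The activin-like ligand gene daw rose by 3.11 ± 0.18. ImpL2, a secreted protein that binds insulin-like peptides, had 1.29, 2.39, 1.02 and 1.013 CPM in the fat body, against 0.946 to 349, median 3.81 CPM in the tract (-2.28 ± 0.27). Its level outside the parovaria (319 CPM) was near that of the fat body, and its call was lost (edgeR, adjusted p of 0.00104 to 0.00324) without fat body replicate 1, 3 or 4, bursa replicate 1, oviduct replicate 3, the third seminal receptacle library or parovaria replicate 2, 3 or 4.

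The receiving pathways held genes called in both directions. Of 11 insulin and nutrient pathway genes, 2 rose and 2 fell (18.2% each way, against 13.5% and 16.4% of all genes tested), with a median 0.09 above all genes. The risen genes act in the response to sugar, the transcription factor gene sug (2.99 ± 0.19) and bigmax (2.60 ± 0.11), the partner of the sugar sensor Mondo, and neither was called with library totals. Of 16 genes of ecdysone and juvenile hormone, 2 rose and 4 fell (12.5% and 25%; median -0.97 relative to all genes). The risen genes inactivate hormone. Cyp18a1, which breaks down ecdysone, was 21.7 to 47.9 CPM in the fat body and 1.42 to 7.24 CPM in the tract (3.54 ± 0.19). Jheh1, a juvenile hormone epoxide hydrolase, was 156 to 355 CPM in the fat body and 16.6 to 36.6 CPM in the tract (3.40 ± 0.15). Kr-h1, a transcription factor induced by juvenile hormone, fell to 3.68 to 6.71 CPM in the fat body, against 14.5 to 78.5 CPM in the tract (-2.57 ± 0.26).

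Some transcription factors of segment and tissue identity were lower in the fat body. Of 17 tested, 2 rose and 5 fell (11.8% and 29.4%, against 13.5% and 16.4% of all genes tested), with a median of -2.15 relative to all genes. Abd-B, the Hox gene of the posterior abdomen and genitalia, had 0.227, 0.224, 0 and 0.304 CPM in the fat body, from 9 counts in all, against 7.65 to 94.1, median 55.1 CPM in the tract (-7.71 ± 0.49; edgeR, adjusted p = 9.11e-09). It was read in every tract tissue, with means between 12.3 CPM in the spermathecae and 79.8 CPM in the parovaria. The Hox gene abd-A was 0.381 to 1.21 CPM in the fat body, against 3.25 to 322 CPM in the tract (-5.03 ± 0.49), with 282 CPM in the oviduct. Mef2, which drives muscle genes and also acts in the adult fat body, fell (-2.57 ± 0.27), with the spermathecae highest (mean 199 CPM). The nuclear receptor gene svp rose (2.43 ± 0.16). The GATA factor gene srp is required for the fat body to form, yet it was 15.7 to 42.0 CPM in the fat body, against 3.02 to 126, median 37.4 CPM in the tract (-0.26 ± 0.17). Its means were 114 CPM in the parovaria and 97.2 CPM in the spermathecae, above all 4 fat body libraries, and 3.61 CPM in the bursa. The sign for srp turned against the epithelial tissues alone and within run 1.

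The 15 genes with the largest rise, among called genes without overlap and with a fat body mean of at least 50 CPM, were CG42486, Obp99c, Vago, CG32573, TotX, CG43175, TotM, CG43920, CtsL3, CG10814, BomS6, CG3246, CG43351, DNaseII and Erasp. Several encode secreted proteins. Obp99c, an odorant-binding protein, had 7615, 5449, 15589 and 11232 CPM in the fat body, against 29.9 to 223, median 100.2 CPM in the tract (6.77 ± 0.25; edgeR, adjusted p = 3.20e-13). Vago, a secreted antiviral protein, had 777, 469.8, 1683 and 1082 CPM in the fat body, against 3.47 to 35.8, median 11.1 CPM in the tract (6.52 ± 0.29). TotM, a Turandot protein released into the haemolymph under stress, had 589, 238, 2735 and 2089 CPM in the fat body, against 2.03 to 61.5, median 16.1 CPM in the tract (6.34 ± 0.59). The related TotX had 81.2, 38.6, 376 and 197 CPM in the fat body and 0.291 to 5.87, median 1.91 CPM in the tract (6.46 ± 0.42). Both Turandot genes were higher in the fat body libraries of run 2 than in those of run 1. BomS6, another bomanin, was 1713 to 7716 CPM in the fat body and 17.7 to 163 CPM in the tract (6.24 ± 0.31). CtsL3, a cathepsin L-like protease, rose by 6.31 ± 0.19, and DNaseII, a lysosomal nuclease, by 6.18 ± 0.17. The other genes of this set rose by 6.17 to 6.47 on the log2 scale, apart from CG42486.

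CG42486 differed from the rest. It had 1419.8, 56.2, 11.2 and 1189.5 CPM in the fat body, against 0.0266 to 9.17, median 1.40 CPM in the tract, and a log2 fold change of 9.87 ± 0.70 (edgeR, adjusted p = 8.10e-08). The lowest fat body library, replicate 3, lay just above the highest tract library, while replicates 1 and 4, which came from different runs, were the highest. The gene was not called with limma-voom, with the replicate block, or within either run alone.

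For the other 14 of these genes, the level in each tract tissue was a small share of the fat body level. The median over the 14 was 0.70% of the fat body mean in the bursa (0.53% to 0.89%), 0.77% in the oviduct (0.57% to 1.008%), 1.84% in the seminal receptacle (1.26% to 2.59%), 1.63% in the spermathecae (0.95% to 1.94%) and 1.98% in the parovaria (1.46% to 2.35%). These genes were chosen for large differences from the mean of the 5 tissues, so the low shares follow from the choice. How far the narrow range within each tissue also follows from it was not tested. Of 8 other fat body transcripts, each had its highest share in the parovaria. There the level was 29.4% of the fat body for apolpp, 23.9% for Yp1, 17.9% for Yp2, 11.2% for Desat1, 9.85% for Yp3, 7.43% for Lsd-1 and 6.22% for AkhR. Tsf1 was flatter, at 4.54% in the bursa, 2.29% in the seminal receptacle and 4.61% in the parovaria. Whether these reads came from tract cells or from fat body attached to the dissected tissue was not tested. Among all 1154 genes called higher, the tract tissue with the highest mean was the parovaria for 381 (33.0%), the bursa for 314 (27.2%), the spermathecae for 211 (18.3%), the seminal receptacle for 179 (15.5%) and the oviduct for 69 (5.98%).

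**Figure D4:**
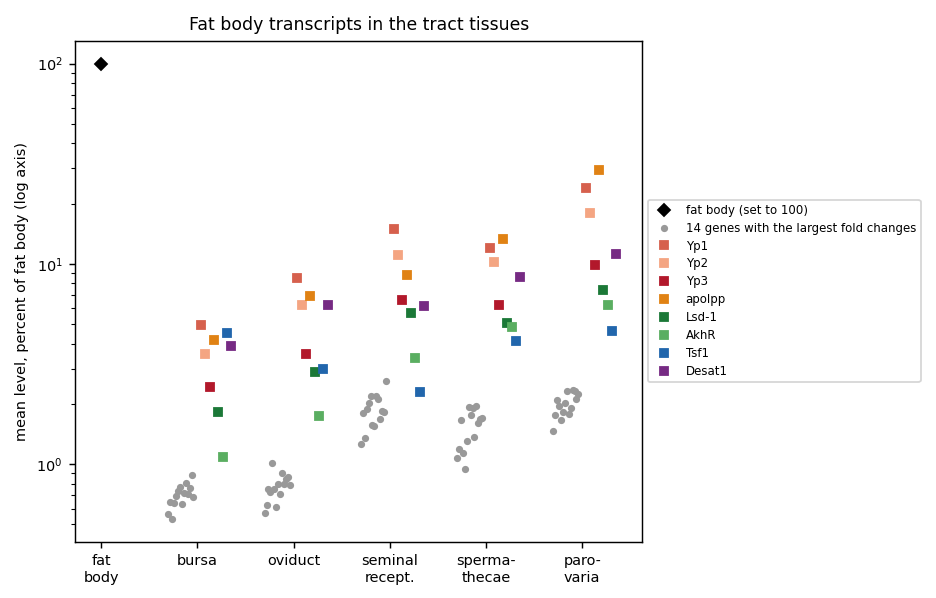
Mean level in each tract tissue as a percentage of the fat body mean, on a log axis, with the fat body set to 100 at the left. Grey points are the 14 genes with the largest fold changes after CG42486, which lie between 0.53% and 2.59%, and coloured squares are 8 other fat body transcripts, of which apolpp reaches 29.4% in the parovaria.

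The genes with the largest fall were at or near 0 in the fat body. The 15 lowest by the same rule, with a tract mean of at least 50 CPM, were Cyp313a3, CG8086, frac, CG7408, Abd-B, CG17839, CG34355, Obsc, RyR, Pura, NAAT1, dpy, CG11029, Jhbp1 and Hml. Cyp313a3, a cytochrome P450, had 0 counts in all 4 fat body libraries, against 4.82 to 194, median 35.8 CPM in the tract, and was at least 184-fold lower in the fat body if 3 counts per library are taken as the limit that a count of 0 allows. Its highest tissue was the bursa (mean 161 CPM). The gene frac had 2 fat body counts and was 1264-fold lower than the tract (95% exact Poisson interval 350.03 to 10441, counting error only). CG7408 had 3 fat body counts and was 893-fold lower (305 to 4329). CG8086 had 4 fat body counts, all in replicate 1, and 15.7 to 143 CPM in the tract. In all, 103 of the 1399 genes called lower had 0 counts in the 4 fat body libraries, and none of the 1154 genes called higher had 0 counts in the 18 tract libraries. The tract had more libraries, with larger scaled sizes, so these counts are not a like comparison. Of the remaining genes, Obsc (-7.61 ± 0.45) and RyR (-7.40 ± 0.48) encode obscurin and the calcium release channel of muscle, NAAT1 (-6.96 ± 0.41) encodes an amino acid transporter and Jhbp1 (-6.67 ± 0.47) a juvenile hormone binding protein. For the genes called lower, the tract tissue with the highest mean was the oviduct for 375, the bursa for 337, the parovaria for 302, the seminal receptacle for 243 and the spermathecae for 142.

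Muscle genes fell together. Of 24 sarcomere genes, 0 rose and 22 fell (median -4.55 relative to all genes), and their summed level in the fat body was 2.85% of the mean over tract tissues. Mhc, the muscle myosin heavy chain, had 23.2, 17.7, 17.5 and 16.5 CPM in the fat body, against 141 to 4974, median 1357 CPM in the tract (-5.37 ± 0.20; edgeR, adjusted p = 5.63e-13). The bursa was highest (mean 3909.7 CPM), and the spermathecae (153 CPM) and parovaria (172 CPM) were nearest to the fat body. Act57B, a muscle actin, was 22.2 to 77.5 CPM in the fat body and 131 to 8675 CPM in the tract (-4.91 ± 0.43). The giant elastic proteins from bt (-5.57 ± 0.38) and sls (-5.401 ± 0.34) and the paramyosin of Prm (-5.43 ± 0.28) fell to a like extent, and Mlc2, a myosin light chain gene, fell as well (-3.20 ± 0.16).

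Genes of epithelial polarity and junctions also fell, 18 of 22 tested, and none rose (median -3.43 relative to all genes). The apical polarity gene crb had 0, 0.224, 0.254 and 0 CPM in the fat body, from 5 counts, against 9.56 to 88.7, median 36.4 CPM in the tract (-8.23 ± 0.54). Of the septate junction genes, cora was 4.06 to 12.8 CPM in the fat body and 117 to 373 CPM in the tract (-4.80 ± 0.28), and nrv2 was 8.51 to 15.4 CPM in the fat body and 41.2 to 2696 CPM in the tract (-4.52 ± 0.20). E-cadherin, from shg, was 1.02 to 2.35 CPM in the fat body and 12.8 to 48.1 CPM in the tract (-3.93 ± 0.29). Its partner arm, a beta-catenin that also transmits Wnt signals, was not called, at 103 to 158 CPM in the fat body and 137 to 289 CPM in the tract (-0.36 ± 0.10), and the groups overlapped.

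Matrix genes parted by type. Of 8 apical matrix and chitin genes 4 fell and 1 rose (50% and 12.5%, against 16.4% and 13.5% of all genes tested). The list median was -3.42 relative to all genes. The giant apical matrix protein gene dpy was 0 to 0.671 CPM in the fat body and 9.27 to 370.4 CPM in the tract (-6.93 ± 0.60). Its partner in anchoring the apical matrix, pio, was 0.811 to 2.801 CPM in the fat body and 19.9 to 757 CPM in the tract (-5.99 ± 0.30). The risen gene, rtv, is needed for chitin organisation in the embryo, and had 35.7, 14.99, 103 and 62.7 CPM in the fat body, against 0.915 to 9.32, median 2.55 CPM in the tract (4.35 ± 0.29). Of 9 basement membrane genes 5 fell and 2 rose (55.6% and 22.2%), with a median of -2.36 relative to all genes. SPARC, a collagen-binding protein, had 1211, 1105, 1277 and 1322 CPM in the fat body, against 32.1 to 720.5, median 66.5 CPM in the tract (3.68 ± 0.14). A collagen IV chain, from vkg, had 381, 633, 205 and 262 CPM in the fat body, against 25.01 to 690.4, median 60.96 CPM in the tract (2.05 ± 0.21). The seminal receptacle, with a mean of 607 CPM, overlapped the fat body for vkg, which lost its call without fat body replicate 1 (1.97) or replicate 2 (1.604). Perlecan, from trol, was at 0.895 to 1.40 CPM in the fat body and 6.24 to 332 CPM in the tract (-5.89 ± 0.29). Papilin, from Ppn, was at 0.811 to 4.25 CPM in the fat body and 6.44 to 1601 CPM in the tract (-4.96 ± 0.34). The haemocyte list, whose cells also make basement membrane, fell in 5 of 8 genes, and summed to 20.6, 14.5, 8.25 and 5.07 CPM in the fat body, against 16.9 to 1779 CPM in the tract. Its defining member Hml had 10 counts in the fat body libraries and a mean of 459.5 CPM in the seminal receptacle (-6.64 ± 0.55), and Pxn, the peroxidasin gene, fell too (-5.58 ± 0.29). The part of these cells in the matrix results was not tested.

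Receptors through which mating signals act on the tract were low in the fat body. Of 5 octopamine, tyramine and sex peptide receptor genes tested, 3 fell and none rose (median -6.45 relative to all genes). SPR, the sex peptide receptor, had 10.4, 5.37, 4.70 and 4.36 CPM in the fat body, against 28.9 to 1674, median 615 CPM in the tract (-5.37 ± 0.25). It was highest in the oviduct (mean 1400.4 CPM), and lowest in the parovaria (31.5 CPM), where it was still above the fat body. The octopamine receptor gene Oamb, which is required for ovulation, had 0.454, 0.969, 0 and 0.811 CPM in the fat body, against 11.2 to 221, median 29.3 CPM in the tract (-6.17 ± 0.34), and Octbeta2R had 3 fat body counts and was 221-fold lower than the tract (95% exact Poisson interval 75.5 to 1070, counting error only).

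Secretion and translation genes did not move together. Of 17 secretory pathway genes none rose and 2 fell (11.8%, against 16.4% of all genes tested), with a median 0.21 above all genes. One that fell was CrebA, the transcription factor of secretory capacity, which was highest in the parovaria (mean 53.5 CPM) and 1.62 to 2.09 CPM in the fat body (-2.63 ± 0.27). Calr, an endoplasmic reticulum chaperone, was 217 to 467 CPM in the fat body and 209.9 to 2997 CPM in the tract (-1.13 ± 0.15) and was not called. Of 81 cytosolic ribosomal protein genes 58 rose and none fell (median 2.91 above all genes), and of 65 nuclear genes of oxidative phosphorylation 34 rose and none fell (median 2.48 above all genes). With library totals 1 ribosomal protein gene was higher and 1 lower, and among the oxidative phosphorylation genes 0 were higher and 1 was lower. The ribosomal protein genes summed to 358310, 310750, 559170 and 462040 CPM in fat body replicates 1 to 4. On this TMM scale the run 2 libraries were above those of run 1. The fat body TMM factors were lower in run 2 (0.31942 and 0.40037) than in run 1 (0.49966 and 0.50918). A lower factor raises scaled levels, so this order cannot be told apart from the scaling. The mitochondrial shares above do not use these factors and are not a like measure. On the TMM scale the summed lipid synthesis genes ran the other way, at 26663, 32218, 18552 and 24791 CPM. The part of the run in these differences was not tested.

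**Figure D5:**
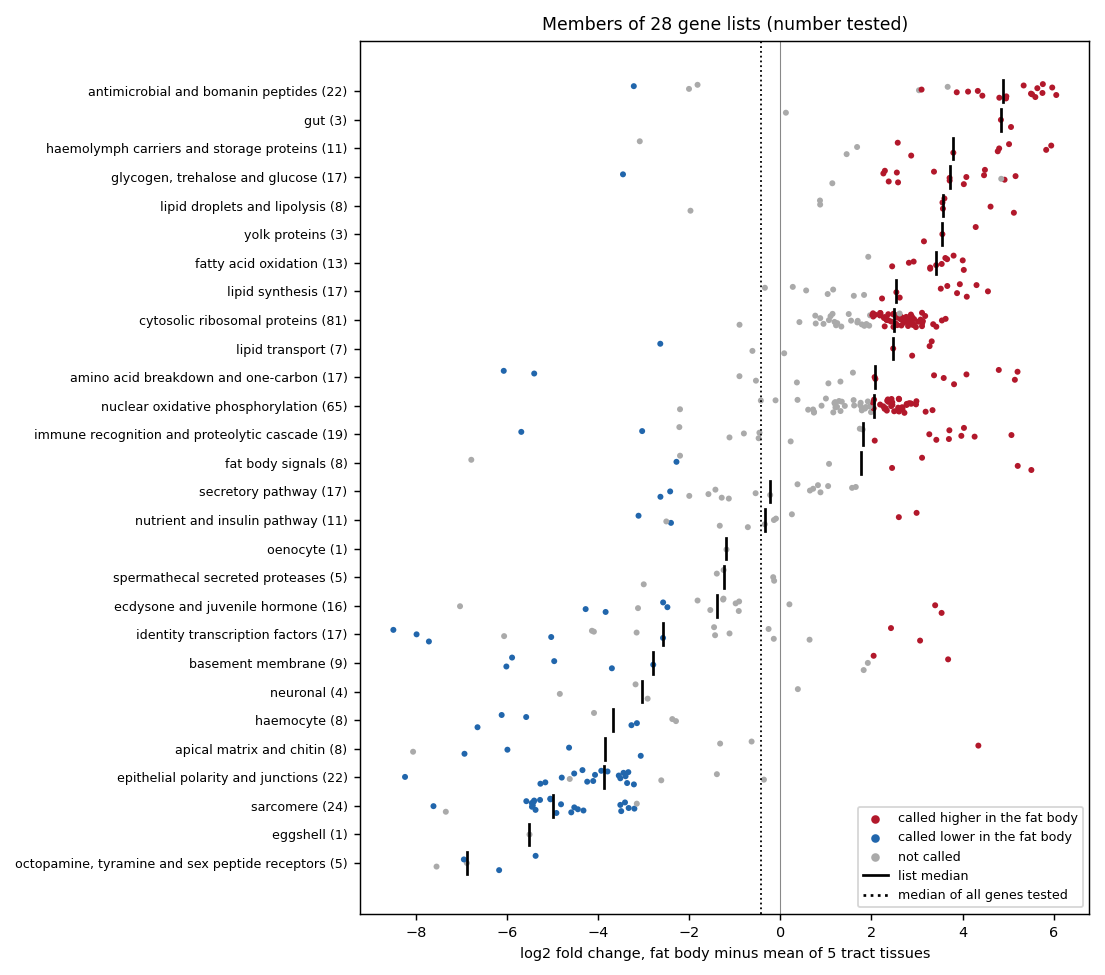
Log2 fold change (fat body minus the mean of the 5 tract tissues) of each member of 28 gene lists, with the number tested in parentheses. Red points were called higher in the fat body, blue points lower and grey points were not called; black bars are list medians and the dotted line is the median of all genes at -0.43. Immune effectors, the gut list (3 genes), haemolymph proteins and the storage lists lie at the top. The receptor, eggshell (1 gene), muscle and epithelial lists lie at the bottom.

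Markers of other cell types were at low summed levels in the fat body except the amylase genes of the gut list, and neuronal and germline sums were above those of some tract tissues. The 12 neuronal genes summed to 7.42, 5.67, 6.73 and 7.19 CPM in the fat body, against 3.20 to 52.3 CPM in the tract, where the spermathecae had a mean of 4.04 CPM. The 4 oenocyte genes summed to 3.79, 3.13, 0.508 and 0.507 CPM in the fat body, against 0.287 to 16.2 CPM in the tract. Of the 5 members tested in these lists none was called. The 6 matched germline genes summed to 4.16, 2.39, 1.78 and 0.405 CPM in the fat body, against 0.356 to 48.7, median 1.15 CPM in the tract, and the 9 eggshell genes to 10.8, 0.447, 2.03 and 1.22 CPM in the fat body, against 0.425 to 27.7 CPM in the tract. Of the gut list, 3 genes were tested and 2 rose, the near-identical amylase genes Amy-p (4.84 ± 0.31) and Amy-d (5.06 ± 0.25), neither of which was called within run 1 alone. The whole gut list summed to 17.4, 91.1, 55.6 and 79.2 CPM in the fat body, against 1.09 to 280.3, median 2.80 CPM in the tract. The highest tract value came from 1 spermathecae library (tissue mean 72.1 CPM), and the means of the other 4 tissues were 2.45 to 3.46 CPM, below every fat body library. In the fat body nearly all of the sum was amylase, with means of 31.5 CPM for Amy-p and 28.4 CPM for Amy-d, while the gut trypsin gene alphaTry was at 0.42 CPM and betaTry at 0.094 CPM.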

How the data were processed

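RNA from dissected tissue pools was sequenced by the authors as single-end reads of 50 bases. Adapters and low-quality reads were removed, reads were mapped with HISAT2 2.1.0 to a FlyBase release 6 genome and counted per gene with StringTie. The deposited table holds raw read counts, whole numbers with a different total in each library, although it is named for CPM. Whether counting used strand, and how reads of near-identical genes were assigned, is not given in the sources used here, so overlapping and antisense genes cannot be told apart. Identifiers were matched to the BDGP6.54 annotation of the same assembly (17624 of 17752, 99.28%). No library repeated another.

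The 22 unmated libraries entered 1 fit in edgeR 4.0.16 (R 4.3.3, TMM factors, tissue as the only term, glmQLFit and glmQLFTest) over 8545 genes above 2 CPM in at least 2 libraries of any 1 tissue. This filter used CPM on library totals, before TMM scaling. The contrast was the fat body minus the mean of the 5 tract coefficients, and the standard error was the log2 fold change divided by the square root of F. Calls needed a Bonferroni-adjusted p of at most 0.001 together with a log2 fold change of 2 or more in size. The biological coefficient of variation was 0.267. In a simulation of this comparison over 7964 genes, with 200 changed by at least 3 on the log2 scale, 200 were recovered with 0 false calls. There the tissues were alike apart from these genes, which rose and fell in equal numbers, and all genes shared the same spread. The simulation therefore cannot show how calls fare under the differences in scaling between the real tissues. Intervals and limits from counts cover counting error only.

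The gene lists and the genes followed were chosen with earlier results of these data known, and lists are described by counts and medians with no test. Of 542 list names 536 matched a gene. The genes named were the 15 with the largest and the 15 with the smallest log2 fold change among called genes without overlap and with a mean of at least 50 CPM in the higher group, the 10 with most fat body counts, Yp3, and list members. Alternatives were other scalings, limma 3.58.1 (voom), DESeq2 1.42.0, no filter, other thresholds, the sequencing run as a covariate or each run alone, a replicate block, other weights or tissues, and each library left out in turn. The mated and whole female libraries were not used. Tables and figures were made with Python 3.11.15, pandas 2.3.3 and matplotlib 3.10.9.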

Additional observations from a re-analysis of the deposited data

Results flagged for a closer look

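In 135 genes and 32 list sums, the 4 fat body values were checked for 1 library far from the other 3, by Dixon's test of the gap to the nearest value as a share of the range. Chance alone puts about 1 in 20 such sets past its 95% critical value. In CG8086, frac, CG7408 and Octbeta2R the share was 1.0, because counts came from a single library and the other 3 held 0. For SPR it was 0.834, with replicate 1 the highest, and for the eggshell list it was 0.846, again with replicate 1 the highest at 10.8 CPM. For mt:Cyt-b it was 0.927, with replicate 3 high at 111390 CPM, and for Fer1HCH it was 0.865, with replicate 3 low at 2936 CPM.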

How the results depend on the processing

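The number of genes called higher in the fat body (1154) stayed within 1.5 times under all but 3 settings, and was 417 with library totals, 558 with library totals without mitochondrial genes (chosen after seeing the data) and 2082 with no fold threshold. The number called lower (1399) was 3093 and 2574 with the same library totals, 2195 with a Benjamini-Hochberg threshold of 0.05, 770 with limma-voom, 348 in run 2 alone and 264 in run 1 alone. Leaving out 1 library gave 1054 to 1169 higher and 1246 to 1440 lower. Genes without overlap numbered 578 higher and 4067 lower with library totals. Of the 2553 genes called, the direction held for 2553 with the run as a covariate, in run 2 alone and in run 1 alone. No called gene among the 135 followed changed sign under any setting. All these genes were called from the same libraries, so agreement in sign was largely set by the choice and is no separate support. Signs turned for 3 uncalled genes, Lsd-2 (-0.56 with library totals, -0.16 without mitochondrial genes), bmm (-0.60 and -0.18) and srp (0.14 in run 1 alone, 0.92 against the epithelial tissues).

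Replicate numbers are not stated to mark shared animals, and the main fit did not treat same-numbered libraries as pairs. Of 36 same-numbered pairs of libraries, 20 had correlated deviations above 0.1 (range -0.11 to 0.41). The 40 differently numbered pairs within a run ranged from -0.17 to 0.34. Whether same-numbered libraries came from the same females was not tested. With the replicate block, which left out the seminal receptacle, 1103 genes were higher and 1226 lower, against 1120 and 1339 without the block (added after seeing the data). Depth limits genes near 0 in the fat body, whose scaled library sizes were the smallest. Bounds or intervals are given only for genes with at most 3 fat body counts. The log2 fold changes of crb, Abd-B, Obsc, RyR and Hml rest on 5 to 10 fat body counts each, so their size is uncertain.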
